A study of Homo sapiens with 4 samples.

Results

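USP genes encode the ubiquitin-specific proteases, and their cassette exons were compared between 2 pooled RNA sequencing read sets of MDA-LM2 cells. The members were protein-coding genes on the autosomes and X whose GENCODE release 29 symbol begins with USP and a digit, which gave 78 genes. A skipped-exon event belonged to such a gene when its skipped exon, or else both flanking exons, matched exons of the gene on the same strand. This gave 175 of the 45977 events present in both groups, and these reduced to 155 of 39120 distinct skipped exons in 37 genes. The symbol rule also takes in USP6NL, which is not a protease, but that gene had no event.

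MDA-LM2 is a breast cancer line derived from MDA-MB-231 by selection for metastasis to the lung in mice. The line was transfected with lipofectamine, with an RNA named SSE mimetic in 1 group and with a scrambled oligo in the other, and both groups carried the same reagent and medium. Each group had 2 samples, and total RNA treated with DNase was made into libraries with ScriptSeq v2. The labels do not expand SSE, give no oligo sequence, dose or time for either group, and do not say whether the samples were separate cultures; the design text gives the purpose as measuring the effect of the mimetic on the transcriptome.

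Ubiquitin-specific proteases are cysteine proteases that cut ubiquitin from proteins or trim ubiquitin chains, and so oppose the ubiquitin ligases that mark proteins for degradation or for a change of partner. The family is the largest among the deubiquitinases, and most members carry, beside the catalytic domain, inserted or flanking domains that select partners and substrates. Several USP transcripts are spliced in alternative forms. A cassette exon in a coding stretch either adds residues to such a region or, where its length is not a multiple of 3, shifts the reading frame.

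The deposited quantity is percent spliced in, written Ψ, a fraction from 0 to 1 for the part of the transcripts that retain a cassette exon. Each event also had reads that fit only the form with the exon (inclusion reads), only the form without it (skipping reads), both forms (shared reads) or neither. The last are taken here as reads in the introns. Inclusion and skipping reads together are called specific reads here. Tests were limited to exons with 10 or more specific reads in both groups, and an exon counts as called here if the authors' Bayes factor for a difference reached 10 and the difference in Ψ reached 0.1 in size. Each group was deposited as 1 pooled read set, so there is no value per sample and no spread between replicates. The 95% credible intervals of Ψ and the 95% exact binomial intervals of read shares hold counting error alone. The libraries had no stated molecular identifiers, so several reads may come from 1 molecule.

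The sequences on which the USP results turn are given first, as the RNA-sense strand of GENCODE release 29 transcripts on hg38, 5′ to 3′. Capitals mark the skipped exon, and lower case marks up to 10 bases of the neighbouring exons. The first set is from USP15 on chromosome 12, plus strand. It holds the annotated start of a 1386-nt stretch that was the called USP exon, a 24-nt coding exon that shared its flanking exons, and exon 7, which separates the known isoforms of the enzyme. The 1386-nt stretch, at chr12:62304673-62306058, is itself no annotated exon. Its first 224 bases, shown without neighbouring exons, are an exon of a processed transcript, and its last base is the end of the first exon of another.
USP15 chr12:62304673-62304896: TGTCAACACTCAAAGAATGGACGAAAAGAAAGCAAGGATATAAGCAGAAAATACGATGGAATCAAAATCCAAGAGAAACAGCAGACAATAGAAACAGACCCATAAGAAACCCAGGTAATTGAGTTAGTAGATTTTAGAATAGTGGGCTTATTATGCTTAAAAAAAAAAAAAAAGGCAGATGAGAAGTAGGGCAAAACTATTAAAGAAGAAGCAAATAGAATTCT
USP15 24-nt exon, chr12:62312286-62312309: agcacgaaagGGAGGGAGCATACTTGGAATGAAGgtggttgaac
USP15 exon 7, chr12:62349221-62349307: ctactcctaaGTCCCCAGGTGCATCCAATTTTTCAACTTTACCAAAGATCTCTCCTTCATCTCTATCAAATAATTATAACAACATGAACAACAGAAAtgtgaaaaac
When exon 7 was skipped, the transcript read across the join below, in which capitals mark the first 15 bases of the exon that follows it.
USP15 join without exon 7: tccttctactcctaaTGTGAAAAACTCAAA

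The second set holds coding exons with strongly negative deposited differences that were short of reads. They are exon 21 of 27 of USP48 on the minus strand, exon 13 of 26 of USP25 on the plus strand and exon 13 of 25 of USP28 on the minus strand. USP25 and USP28 are close paralogs, and the exon 13 of each differs in length from the other by whole codons. The last sequence is exon 12 of USP8 on the plus strand, an 87-nt coding exon that was skipped in both groups.
USP48 exon 21, chr1:21703512-21703618: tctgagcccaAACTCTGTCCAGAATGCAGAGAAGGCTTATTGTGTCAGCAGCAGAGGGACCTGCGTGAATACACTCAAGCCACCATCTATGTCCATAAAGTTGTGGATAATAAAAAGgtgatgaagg
USP25 exon 13, chr21:15826204-15826365: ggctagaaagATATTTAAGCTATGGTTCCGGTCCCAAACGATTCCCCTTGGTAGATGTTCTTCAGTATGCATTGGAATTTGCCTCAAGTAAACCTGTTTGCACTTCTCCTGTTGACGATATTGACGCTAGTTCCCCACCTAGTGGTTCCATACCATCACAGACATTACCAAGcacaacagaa
USP28 exon 13, chr11:113817658-113817837: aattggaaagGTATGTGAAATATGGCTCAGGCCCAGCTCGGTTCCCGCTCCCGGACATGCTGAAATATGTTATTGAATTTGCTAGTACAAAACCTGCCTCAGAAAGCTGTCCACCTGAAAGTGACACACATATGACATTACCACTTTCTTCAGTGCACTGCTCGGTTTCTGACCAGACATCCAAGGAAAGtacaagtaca
USP8 exon 12, chr15:50484275-50484361: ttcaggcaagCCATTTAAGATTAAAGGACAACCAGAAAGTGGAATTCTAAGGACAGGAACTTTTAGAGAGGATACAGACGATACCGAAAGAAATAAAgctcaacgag

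One USP exon changed by the rule, the unannotated 1386-nt stretch of USP15, which was higher with the SSE mimetic and was assigned to the gene through its flanking exons. None was called lower, and 29 of the 30 tested exons were not called. Over all 8228 tested exons, 3.99% were called in either direction, 3.1% higher and 0.887% lower, and the 3.33% called among the USP exons lies near that background. The same exon of USP15 was the only USP exon that passed the two-sided Fisher's exact test on inclusion against skipping reads after Benjamini-Hochberg adjustment over all tested exons, a test that 1.01% of all tested exons passed. That test compares 2 read sets, not the conditions. At an unadjusted p under 0.05, 2 of the 30 USP exons passed it, beside 453 of all 8228 tested exons.

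Read depth decided how much of the family could be compared. The 30 tested USP exons lay in 17 genes and made up 19.4% of the USP exons, against 21.0% tested among all exons. Of the 125 untested ones, 74 fell short in the SSE mimetic set alone and 51 in both sets, and 4 had no specific read in either. The 155 exons drew 1121 specific reads in the SSE mimetic set and 4899 in the scrambled set, a ratio of 4.37, where all exons gave 4.79. Reads that fit neither form numbered 69929 and 108413 over the same exons, a ratio of 1.55, against 1.53 over all exons. Events that overlap or have the same flanking exons share reads, so all these totals count some reads more than once.

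The 41 genes without an event comprised 26 of the USP17L group, which are near-identical copies in tandem arrays, and 15 others. Among these 15 were USP1, which acts in DNA crosslink repair, USP22, the protease of the SAGA coactivator, USP5, which takes free ubiquitin chains apart, USP18, which removes the ubiquitin-like ISG15, and USP9X. No statement on splicing can be made for any of them here.

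**Figure D1:**
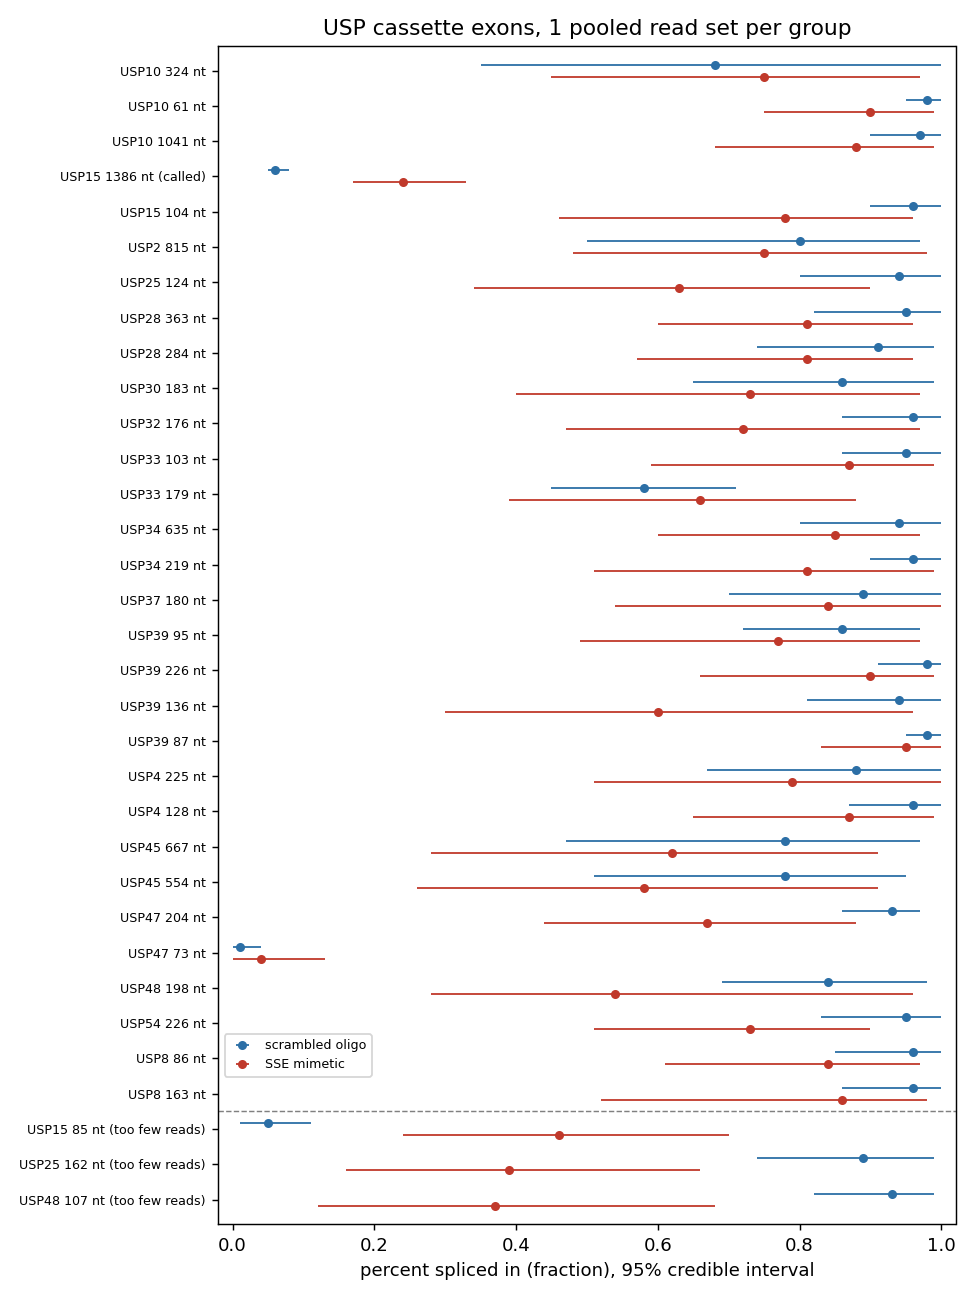
Percent spliced in (fraction, x axis) with 95% credible intervals for the 30 tested USP exons and, below the dashed line, the 3 exons that passed the Bayes factor and size limits with too few reads. Blue is the scrambled oligo and red the SSE mimetic, 1 pooled read set each. The intervals of the groups are apart for 1 tested exon, the 1386-nt stretch of USP15.

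The tested exons ranged from 61 to 1386 nt. By annotation, 20 were coding, 5 partly coding, 1 untranslated, 2 exons of noncoding transcripts and 2 unannotated, and the length of 11 was a multiple of 3. In 3 pairs, in USP28, USP34 and USP45, the members were forms of an exon with different ends, so those 6 exons share reads. The median Ψ over the 30 was 0.775 in the SSE mimetic set and 0.94 in the scrambled set, where all tested exons had 0.82 and 0.89. The median credible interval was 0.46 wide in the SSE mimetic set and 0.175 wide in the scrambled set, on medians of 14.5 and 60.0 specific reads. For 17 of the 30 exons no skipping read was seen in either group, 56.7%, against 54.8% of all tested exons. In those exons a Ψ below 1 rests on no skipping read, but on the balance of inclusion and shared reads and on their number. Exon 5 of USP10, without shared reads, had Ψ 0.88 on 122 inclusion reads and 0.97 on 385.

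The deposited difference, SSE mimetic minus scrambled, was below 0 in 26 of the 30 tested USP exons and had a median of -0.095. Over all tested exons it was below 0 in 63.2%, with a median of -0.03. None of the 26 was called. The 4 exons above 0 were the 1386-nt stretch of USP15, a 324-nt exon of USP10 at 0.07, exon 2 of USP33 at 0.08 and a 73-nt exon of USP47 at 0.03. The Bayes factor was under 1 in 23 of the 30 exons and between 1 and 10 in 6, and 15 exons had a difference of at least 0.1 without being called. Because the sets differed in depth, Ψ was also estimated from a 2-isoform likelihood with the scrambled reads divided by 4.73, the ratio of specific reads over all events. The USP differences were then below 0 in 16 of 30 exons with a median of -0.00343, and over all tested exons in 37.9% with a median of 0.0174. Without that scaling the same likelihood gave a USP median of -0.0752.

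USP15 removes ubiquitin from receptors and SMAD proteins of TGF-beta signalling and from a component of the spliceosome, and was the USP gene with the called exon. In its 1386-nt stretch Ψ was 0.24 (credible interval 0.17 to 0.33) in the SSE mimetic set and 0.06 (0.05 to 0.08) in the scrambled set. The difference was 0.18 and the deposited Bayes factor 112365.53. The SSE mimetic set held 64 inclusion, 3 skipping and 33 shared reads, and the scrambled set 115, 36 and 202. The inclusion share of specific reads was thus 95.5% (87.5 to 99.1) against 76.2% (68.6 to 82.7), with an unadjusted p of 0.000419 and an adjusted p of 0.0454 by Fisher's exact test. The intervals of both measures were apart. Sequence of this stretch is given above for its annotated start.

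The inclusion reads of the 1386-nt stretch were about as dense as those of its introns. Its density was 46.2 reads per kb with the SSE mimetic, against 41.8 in the flanking introns, a ratio of 1.11. With the scrambled oligo these values were 83.0 and 72.7 per kb, a ratio of 1.14. After the number of reads expected from the intron density was taken away, 9.22 inclusion reads remained in the SSE mimetic set and 19.7 in the scrambled set. Ψ from the 2-isoform likelihood was then 0.0449 against 0.0117, and the difference of 0.0332 was not called. With scaled scrambled reads and no subtraction the difference was 0.176 and was called.

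Skipping and shared reads of the 1386-nt stretch were the same ones as those of the 24-nt exon of USP15, since both events lie between the same flanking exons. The 24-nt exon, 8 codons long, had no inclusion read in either set. With 36 skipping reads in the scrambled set, a count of 0 allows an inclusion share of up to 8.33%. The 3 reads of the SSE mimetic set hardly limit it, with an exact binomial interval that reaches 70.8%. Its Ψ was 0.02 (0 to 0.05) with the scrambled oligo and 0.17 (0.02 to 0.48) with the SSE mimetic.

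Exon 7 of USP15, whose 29 codons lie in the stretch before the catalytic domain, was kept in most but not all transcripts of the scrambled set. There Ψ was 0.66 (0.56 to 0.75) on 83 inclusion and 22 skipping reads, an inclusion share of 79.0% (70.0 to 86.4). In the SSE mimetic set there were 3 inclusion reads and 2 skipping reads, which gave a Ψ of 0.31 (0.09 to 0.61) and a share of 60.0% (14.7 to 94.7). The exon was therefore not tested, its Bayes factor was 3.33 and the intervals overlapped. Transcripts with and without the exon were both present in the scrambled set, the latter shown by the reads across the printed join. Protein was not measured.

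Most of the 22 exons of the USP15 transcript had no event, and the exons described next lie between exon 6 and exon 20. Exon 20 of 22, with 104 nt at chr12:62396295-62396398, was tested and not called, with Ψ 0.78 (0.46 to 0.96) against 0.96 (0.90 to 1) on 10 and 61 inclusion reads without skipping. Exon 6, with 62 nt, had 3 and 45 inclusion reads and no skipping read. The 113-nt and 146-nt exons, from shorter transcripts, were at Ψ 0.41 and 0.24 with the SSE mimetic and at 0.09 and 0.07 with the scrambled oligo, on at most 5 specific reads in the SSE mimetic set.

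**Figure D2:**
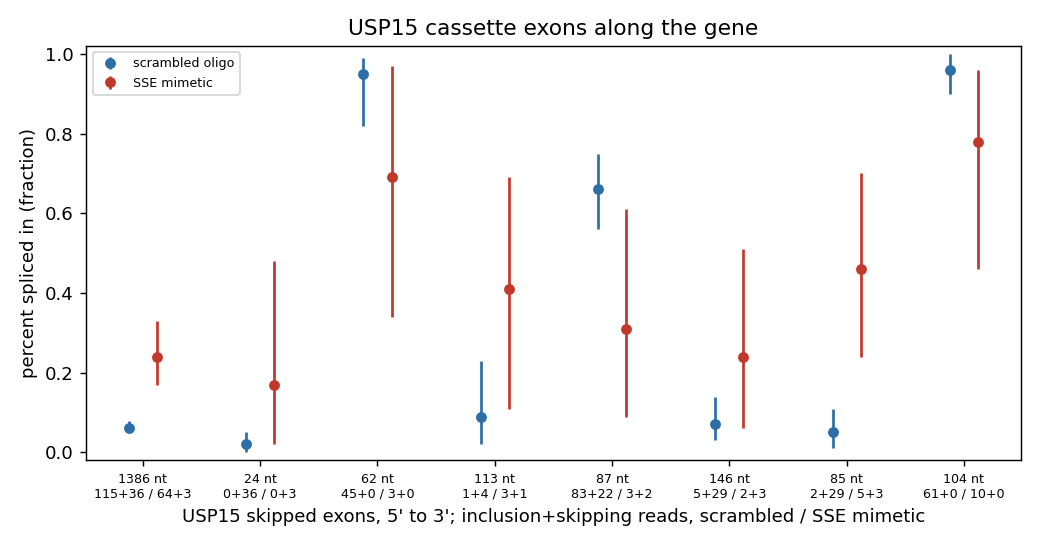
Percent spliced in (fraction, y axis) with 95% credible intervals for the 8 USP15 exons in order along the gene, scrambled oligo in blue and SSE mimetic in red, 1 pooled read set each. Inclusion and skipping reads of both sets are under each exon. The 1386-nt and 85-nt stretches, neither annotated, have intervals that do not overlap between the groups.

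A further 3 of the 155 USP exons passed the Bayes factor and size limits but had fewer than 10 specific reads with the SSE mimetic. Over all 39120 exons, 316 passed these limits without enough reads for the test. An unannotated 85-nt stretch of USP15, chr12:62381135-62381219, had Ψ 0.46 (0.24 to 0.70) against 0.05 (0.01 to 0.11) and a Bayes factor of 83.27. It rested on 5 inclusion reads and 3 skipping reads in the SSE mimetic set, and on 2 and 29 in the scrambled set. Its inclusion reads stood at 1.21 times the intron density in the first set and at 0.316 times in the second. With scaled scrambled reads the difference of the 85-nt stretch was 0.376 and did not pass the limits. After intron subtraction it was 0.446 and passed them. In both unannotated stretches of USP15 Ψ was under 0.1 with the scrambled oligo and higher with the SSE mimetic. That held for all 14 USP exons under 0.1 with at least 20 specific scrambled reads, and for 93.0% of all such exons. It thus does not set USP15 apart.

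USP48 acts on ubiquitin placed on histone H2A by BRCA1, and its exon 21 had the lowest difference of any USP exon. Ψ was 0.37 (0.12 to 0.68) in the SSE mimetic set and 0.93 (0.82 to 0.99) in the scrambled set, a difference of -0.56 with a Bayes factor of 31.85. The sets held 6 and 64 inclusion reads, 36 and 52 shared reads, and no skipping read. Skipping of the printed 107-nt exon was thus not seen directly in either set. Shared reads per inclusion read numbered 6.0 and 0.812, and inclusion reads stood at 1.05 and 7.67 times the intron density. With scaled scrambled reads the difference was -0.558, and it passed the Bayes factor and size limits there too.

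USP25, which acts in immune signalling through TRAF proteins, showed the same layout of reads in its exon 13 of 162 nt. Ψ was 0.39 (0.16 to 0.66) against 0.89 (0.74 to 0.99), a difference of -0.50 with a Bayes factor of 17.53. There were 6 and 57 inclusion reads, 26 and 74 shared reads and no skipping read. With scaled scrambled reads the difference was -0.373 and did not pass the limits. Its 54 codons carry no direct sign of skipping in these reads.

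USP4, USP15 and USP39 work on the splicing machinery. USP39 lacks an active catalytic site and is a part of the spliceosome, while USP4 and USP15 remove ubiquitin from spliceosomal proteins. Of the 18 exons of these 3 genes 8 were tested, 1 was called higher (the USP15 stretch) and 0 lower, 7 had a difference below 0, and the median difference was -0.09.

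USP39, on chromosome 2, was the gene with the most tested exons, 4, and none was called. Exon 12, of 87 nt at chr2:85647930-85648016, had Ψ 0.95 (0.83 to 1) in the SSE mimetic set and 0.98 (0.95 to 1) in the scrambled set, on 34 inclusion reads against 229 and 1 skipping read. This is among the narrowest intervals of any USP exon in the SSE mimetic set, and the exon was kept in nearly all transcripts of both. Exon 6, of 226 nt at chr2:85630721-85630946, had Ψ 0.90 (0.66 to 0.99) against 0.98 (0.91 to 1) on 28 and 112 inclusion reads. Exon 3, of 95 nt at chr2:85621485-85621579, had 0.77 (0.49 to 0.97) against 0.86 (0.72 to 0.97) on 12 inclusion reads against 58 and 1 skipping read. All 3 pairs of intervals overlapped.

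Exon 11 of USP39, of 136 nt at chr2:85644948-85645083, had the lowest difference of any tested USP exon, -0.34, without being called. Its Ψ was 0.60 (0.30 to 0.96) on 15 inclusion and 33 shared reads, and 0.94 (0.81 to 1) on 159 and 175. No skipping read was seen in either set, the Bayes factor was 1.17 and the interval of the SSE mimetic set reached past the scrambled value.

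In USP4, exon 2, of 128 nt at chr3:49335469-49335596, had Ψ 0.87 (0.65 to 0.99) against 0.96 (0.87 to 1) on 14 and 55 inclusion reads. Exon 11, of 225 nt at chr3:49300467-49300691, had 0.79 (0.51 to 1) against 0.88 (0.67 to 1) on 24 and 43 inclusion reads. Neither had a skipping read or was called. Exon 7 of 141 nt, the exon that separates the known USP4 isoforms, was 1 read short of the test, with Ψ 0.79 against 0.87 on 9 and 20 inclusion reads. No skipping of it was seen, whereas exon 7 of USP15 was skipped in both sets.

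USP enzymes of the DNA damage and p53 pathways gave 9 tested exons in 5 genes out of 36 exons. None was called, 7 had a difference below 0, and the median was -0.09. USP10, which stabilises p53 and binds the stress granule protein G3BP1, held the best covered of all tested USP exons. This was exon 5, of 1041 nt at chr16:84744633-84745673, with Ψ 0.88 (0.68 to 0.99) against 0.97 (0.90 to 1) on 122 and 385 inclusion reads with no skipping read. A count of 0 in those reads allows a skipping share of specific reads of up to 2.46% and 0.779%. These are shares of reads, not of transcripts, since a 1041-nt exon offers many more read positions than the skipping join. The intervals of Ψ reach down to 0.68 and 0.90. Exon 4 of USP10, of 61 nt, had 0.90 (0.75 to 0.99) against 0.98 (0.95 to 1) on 22 inclusion reads and 1 skipping read against 95 inclusion reads.

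USP28, which protects MYC from degradation and binds a DNA damage checkpoint protein, was tested at an exon near its start with 284-nt and 363-nt forms. The 363-nt form, at chr11:113874517-113874879, had Ψ 0.81 (0.60 to 0.96) against 0.95 (0.82 to 1) on 30 inclusion reads and 1 skipping read against 59 inclusion reads. In USP47, which acts on the DNA repair polymerase beta, exon 3 of 204 nt, at chr11:11880177-11880380, had 0.67 (0.44 to 0.88) against 0.93 (0.86 to 0.97). This exon had skipping reads in both sets, with 9 inclusion and 2 skipping reads against 98 and 4, and its unadjusted p by Fisher's exact test was 0.104. The groups' intervals overlapped by a narrow margin.

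A 73-nt exon of noncoding USP47 transcripts, at chr11:11951697-11951769, was tested and had no inclusion read in either set. Its 12 and 43 skipping reads set the limit, which allows an inclusion share of up to 25.0% and 6.98%. Its Ψ of 0.04 (0 to 0.13) and 0.01 (0 to 0.04) had the narrowest SSE mimetic interval of the tested exons. USP48 exon 12, of 198 nt at chr1:21723898-21724095, had Ψ 0.54 (0.28 to 0.96) against 0.84 (0.69 to 0.98) on 15 inclusion reads against 97 and 2 skipping reads. The 815-nt USP2 exon, at 0.75 (0.48 to 0.98) and 0.80 (0.50 to 0.97), overlaps an antisense gene, and the sources do not say that reads were assigned by strand. USP2 acts on MDM2, the ligase of p53.

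Enzymes of the endosome, the endoplasmic reticulum and mitochondria had 6 tested exons in 4 genes out of 20 exons, with 0 called, 5 below 0 and a median of -0.11. USP8 frees receptors such as EGFR from ubiquitin on endosomes. Its exon 5, of 163 nt at chr15:50459000-50459162, had Ψ 0.86 (0.52 to 0.98) against 0.96 (0.86 to 1) on 22 and 105 inclusion reads, and its exon 4, of 86 nt, had 0.84 against 0.96 on 10 and 48. USP8 exon 12, printed above, was an alternative exon in the scrambled set, with Ψ 0.65 (0.50 to 0.79) on 37 inclusion and 11 skipping reads. The SSE mimetic set had 2 of each, for a Ψ of 0.39 (0.09 to 0.77), too few to test.

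USP32, which acts on the endosomal GTPase RAB7, had at exon 14 of 176 nt (chr17:60223411-60223586) Ψ 0.72 (0.47 to 0.97) against 0.96 (0.86 to 1) on 18 and 111 inclusion reads. Reads of USP32 and its human paralog USP6 may be split or shared between the genes, and how the authors placed such reads is not given. USP33, which deubiquitinates the axon guidance receptor ROBO1, had at exon 23 of 103 nt (chr1:77701369-77701471) Ψ 0.87 (0.59 to 0.99) against 0.95 (0.86 to 1). Exon 2 of USP33, of 179 nt, was alternative in both sets, with Ψ 0.66 (0.39 to 0.88) on 10 inclusion and 2 skipping reads and 0.58 (0.45 to 0.71) on 47 and 15. It was 1 of 4 tested USP exons with a difference above 0. USP30, the mitochondrial enzyme that opposes parkin, had at exon 6 Ψ 0.73 against 0.86 on 12 and 14 inclusion reads.

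The list for growth, Wnt and TGF-beta signalling, which shares USP4 and USP15 with the splicing list, had 6 tested exons in 3 genes out of 17 exons. Only the USP15 stretch was called, higher, and the other 5 were below 0, with a median of -0.09. USP34, which stabilises axin in the Wnt pathway, was tested at exon 68 of 80. Its 635-nt form, at chr2:61214060-61214694, had Ψ 0.85 (0.60 to 0.97) against 0.94 (0.80 to 1) on 46 and 179 inclusion reads with no skipping read.

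The remaining members had 5 tested exons in 4 genes out of 48 exons, all 5 below 0 with a median of -0.20, and none called. USP25 exon 4, of 124 nt at chr21:15777904-15778027, had Ψ 0.63 (0.34 to 0.90) against 0.94 (0.80 to 1) on 10 inclusion and 2 skipping reads against 43 inclusion reads. Its unadjusted p by Fisher's exact test was 0.0444 and its adjusted p 0.8465. The 667-nt form of exon 14 of USP45, an enzyme that acts on the repair nuclease ERCC1, lies at chr6:99445797-99446463 and had 0.62 (0.28 to 0.91) against 0.78 (0.47 to 0.97). An untranslated 226-nt exon of USP54, at chr10:73576136-73576361, had 0.73 (0.51 to 0.90) against 0.95 (0.83 to 1), on 13 inclusion reads and 1 skipping read against 43 inclusion reads. USP37, which acts on cyclin A, had 0.84 against 0.89 at a 180-nt exon.

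The chromatin list and the proteasome list had no tested exon. The chromatin enzymes, most of which remove ubiquitin from histones H2A or H2B, had 24 exons in 7 of 10 genes and 103 specific reads in all with the SSE mimetic. Within that list, USP7, which also acts on MDM2 and p53, had at a 68-nt exon Ψ 0.82 (0.50 to 0.99) against 0.98 (0.93 to 1) on 7 and 87 inclusion reads. A 175-nt USP7 exon was almost always skipped, with 4 and 54 skipping reads against 1 and 3 inclusion reads. USP21, an H2A enzyme, had at a 178-nt untranslated exon Ψ 0.71 (0.41 to 0.96) against 0.42 (0.22 to 0.65) on 7 inclusion reads and 1 skipping read against 8 and 4. The second list, of enzymes of the proteasome and of free chains, had 7 exons, in USP13 and USP14. USP13 exon 3, of 61 nt, was skipped in part in both sets, with 5 inclusion and 2 skipping reads against 27 and 3. The list for ISG15 holds USP18 alone and had no event.

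The untested exons spread to both sides of 0. Their specific reads ran from 0 to 9 where the SSE mimetic set alone was short, and their difference ran from -0.56 to 0.44 over all 125, with a median of 0.02, 58 below 0, 65 above and 2 at 0. At the read minimum itself, the USP10 324-nt, USP15 104-nt, USP37 180-nt and USP8 86-nt exons had just 10 specific reads in the SSE mimetic set. Just outside it, with 9, lay the USP37 220-nt, USP39 120-nt, USP4 141-nt, USP44 206-nt and USP44 293-nt exons, whose differences ran from -0.11 for USP37 to 0.10 for USP39.

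The USP exons can also be described by their level in the scrambled set. That level is itself a term of the difference and Ψ is bounded by 0 and 1, so the direction in the highest and lowest classes is largely fixed by the grouping and is given as a description alone. Of the USP exons, 68 in 21 genes had at least 20 specific reads there, and the SSE mimetic set was not required to reach a minimum. In 30 of these, 44.1%, Ψ was at least 0.9 with the scrambled oligo, and all 30 were lower with the SSE mimetic, with a median difference of -0.155. Of all exons at that level 96.1% were lower, with a median of -0.1. In 14 USP exons Ψ was under 0.1 with the scrambled oligo, and all 14 had a higher value with the SSE mimetic, with a median of 0.175. Of all exons at that level 93.0% were higher, with a median of 0.07. Specific reads in the SSE mimetic set were few in both classes, with medians of 11.5 in the high and 4.5 in the low class. All exons of these classes had medians of 16.0 and 8.0.

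Between these, 24 USP exons had Ψ from 0.1 to 0.9 with the scrambled oligo, 35.3%, against 39.5% of all exons. The difference was below 0 in 21 and above 0 in 3, with a median of -0.165, where all exons had 55.6% below 0 and a median of -0.03. Median specific reads in the SSE mimetic set were 6.5 for these 24 and 10.0 for all exons of the class, so the depths were unlike. Only 10 of the 24 had a skipping read in the scrambled set, 20 were coding and 7 were tested. Summed over the 24, inclusion reads made up 94.6% of specific reads in the SSE mimetic set and 93.2% in the scrambled set. Over the 14 low exons these shares were 60.2% and 20.6%, and over the 30 high ones 98.5% and 99.8%. The 1386-nt USP15 stretch held 64 of the 77 inclusion reads of the low class in the SSE mimetic set. In the scrambled set it held 115 of 137. Over all exons the low-class shares were 16.2% and 7.0%. They were 92.6% and 87.7% between 0.1 and 0.9, and 99.7% in both sets in the high class. Exons between the same flanking exons share skipping reads, so some reads enter these sums more than once.

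**Figure D3:**
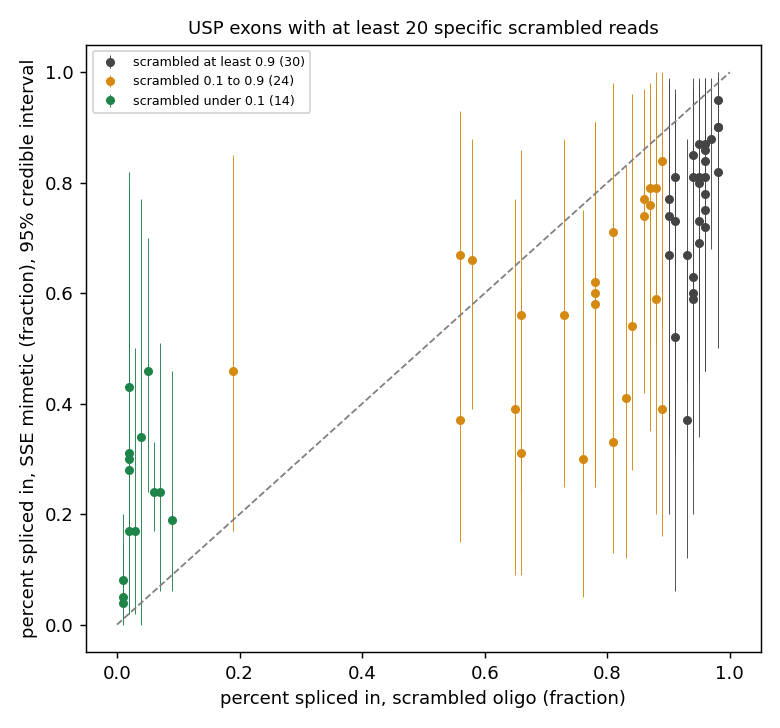
Percent spliced in (fraction) with the scrambled oligo on the x axis and with the SSE mimetic on the y axis, with the 95% credible interval of the latter, for the 68 USP exons with at least 20 specific scrambled reads. Each point is an exon, coloured by its level in the scrambled set, and the dashed line marks equal values. All 14 exons under 0.1 lie above the line and all 30 exons of at least 0.9 lie below it, a direction that the grouping largely fixes.

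Reads over the exons and reads over the introns differed between the sets by different factors. Over the 30 tested USP exons the median density of inclusion reads was 79.1 per kb in the SSE mimetic set and 358 per kb in the scrambled set, a ratio of 4.53. The median intron density was 42.0 and 64.1 per kb, a ratio of 1.53. The median ratio of exon to intron density was thus 1.93 in the SSE mimetic set and 4.75 in the scrambled set, and in 26 of the 30 exons the SSE mimetic set had the lower ratio. All tested exons had medians of 1.79 and 2.9, with a lower value in 6160 of 8228. At or below the intron density stood 4 USP exons in the SSE mimetic set and 5 in the scrambled set, 13.3% and 16.7%. Of all tested exons 28.8% and 25.1% stood there. Among these USP exons were the 815-nt USP2 exon (0.552 and 0.38 times), both forms of the USP45 exon and the 73-nt USP47 exon.

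With the SSE mimetic 17 of the 30 USP exons stood at under 2 times their intron density, against 7 with the scrambled oligo. Of all 8228 tested exons, 4487 and 3417 did so. Exon 7 of USP15, untested, stood at 16.0 times the intron density in the scrambled set and at 0.88 times in the SSE mimetic set, and exon 12 of USP8 at 8.84 and 0.841 times. How far intron reads, or the gap in depth, moved Ψ in either set was not tested beyond the subtraction and the scaling given here.

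**Figure D4:**
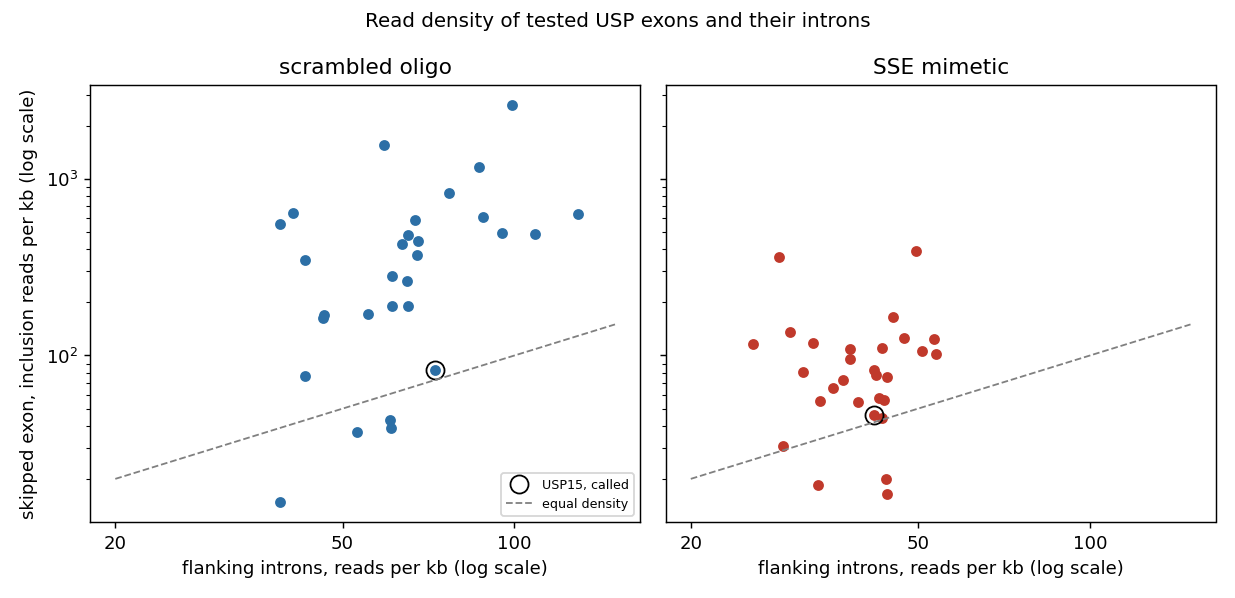
Inclusion reads per kb of the skipped exon (y axis) against reads per kb of its flanking introns (x axis), both on log scales, for the tested USP exons in each pooled read set. Each point is an exon, the dashed line marks equal density and the circle marks the called USP15 stretch, which lies close to the line in both sets. The 73-nt USP47 exon had no inclusion read and is not drawn.

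The other deubiquitinase families give the nearest comparison, with 49 listed symbols, 87 exons and 30 tested exons in 16 genes. Of these 1 was called higher, 0 lower, 20 had a difference below 0, and the median was -0.045. The called exon was a 225-nt exon of COPS5, the catalytic subunit of the COP9 signalosome, at chr8:67060321-67060545. Its Ψ was 0.16 (0.08 to 0.28) against 0.02 (0.01 to 0.03), on 9 inclusion and 19 skipping reads against 5 and 133, with a Bayes factor of 28.56. It passed Fisher's exact test with an adjusted p of 0.008122. No difference between the USP list and this one was tested, and each had 3.33% called.

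By family, genes listed under the JAMM metalloprotease type, not all of which need be active enzymes, had 17 tested exons. The Josephin type had 4, UCH 3, MINDY and ZUP1 3, relatives of the USP fold with other symbols (CYLD, PAN2 and USPL1) 2, and OTU 1. COPS5 is of the JAMM type, and no tested exon of the other families was called.

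Marker genes of the line were checked by specific reads, since the skipped-exon tables give no gene counts. Of 8 basal mesenchymal markers 7 had reads, 646 in the SSE mimetic set and 6163 in the scrambled set, of which CD44 held 466 and 4281, and VIM had no event. Of 6 luminal markers 4 had reads, 168 and 566, of which KRT8 held 138 and 520, while EPCAM and KRT18 had no event. Blood markers had reads in 1 of 4 genes (PTPRC, 19 and 26), fibroblast markers in 1 of 3 (DCN, 21 and 29) and endothelial markers in 2 of 3 (20 and 33 in all). In bulk samples such as these, fewer cells of a type and less RNA per cell cannot be told apart. The part of any of these markers in the USP values was not tested.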

How the data were processed

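RNA sequencing was done on 4 samples, 2 for each of the SSE mimetic and the scrambled oligo. Per the submitters' processing notes, STAR 2.7 and the hg38 build were used. Per the file headers, the authors deposited skipped-exon tables of MISO, 1 summary per group and 1 comparison. Not given in the sources used here are the program's version, its event set, the strand setting and how samples were joined. Ψ is deposited as a fraction with its 95% credible interval, per the file headers. The Bayes factor is deposited as a ratio, capped at 1e12. The deposited difference, treated as a score that can be negative, was SSE mimetic minus scrambled and matched the summaries to within 0.005 in all 45977 shared events. Reads per isoform class are text in the deposited tables. The MISO tables do not give library totals, so depth is stated as specific reads per exon.

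Events were matched to GENCODE 29, and of events with the same skipped exon the one with the most specific reads was kept. The rule for called exons and Fisher's exact test (two-sided, SciPy 1.17.1, Benjamini-Hochberg over 8228 tested exons, threshold 0.05) ran on all exons with Python 3.11.15, NumPy 2.4.6 and pandas 2.3.3. Read densities and the 2-isoform likelihood (1001 grid points) assumed 76-nt reads. Of the lengths tried, 50, 76, 100 and 150 nt, this one gave Ψ closest to the deposited Ψ. The likelihood and the Fisher step were tested on simulated data. Exact binomial intervals are at 95%, and the floor for a count of 0 is 3 reads. Alternatives were other read minimums, Bayes factor and size limits, ways of matching events, the likelihood, intron subtraction and scaled reads.

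The members and lists were chosen with earlier results of these data known. Named exons were those called, those past the Bayes factor and size limits without enough reads, those passing the read test, those with at least 20 specific reads in both groups and a scrambled Ψ of 0.1 to 0.9, the best covered exon of the 3 best covered genes of each list, the exons of the gene with the most tested exons, the 3 with the narrowest SSE mimetic intervals, and called exons of the other families. Other exons of USP genes, among them USP15 exon 7, USP8 exon 12 and USP28 exon 13, were named after their values were seen. A list of partner genes of the USP enzymes is not reported here.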

Additional observations from a re-analysis of the deposited data

How the results depend on the processing

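No paired analysis was possible because each group was deposited as 1 pooled read set, so leaving out a replicate could not be done either. The count of called USP exons, 1, became 0 when events had to match through the skipped exon itself, 0 at a difference of at least 0.2 and 0 after intron subtraction. At a read minimum of 5 it became 4, but 77 USP exons were then tested in place of 30. Of the 4, 2 were higher (both in USP15) and 2 lower (USP25 and USP48). The share called over all exons at that minimum is not given here. The count stayed at 1 with exons overlapping another gene left out, with all events kept and at a read minimum of 20. It also stayed at 1 at Bayes factors of 5, 20 and 100, at a difference of at least 0.05 and with apart intervals. The same held with Fisher's exact test in place of the Bayes factor, with the inclusion share, and with the 2-isoform likelihood with or without scaled reads.

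For the other families the count of 1 became 2 at a read minimum of 5 (COPS5 and EIF3H), with 41 exons tested in place of 30. It became 0 at a Bayes factor of at least 100, at a difference of at least 0.2 and with scaled scrambled reads. The 1 USP exon that passed Fisher's exact test became 0 at a read minimum of 5, after intron subtraction, after inclusion reads were divided by the ratio of positions, and with scaled reads. At an unadjusted p under 0.05 these settings left 3, 3, 0 and 1 USP exons, and over all exons 66, 73, 0 and 13 passed. All 21 named USP exons kept the sign of their difference under the 2-isoform likelihood, as did the 20 with specific reads left after intron subtraction (USP45 had none), and 1 lost its place past the limits in each (USP25 exon 13 and the 1386-nt USP15 stretch). With scaled scrambled reads 14 kept their sign and 7, none of them called, changed it, to 0.0278 in USP10, 0.00503 in USP34, 0.0123 in USP39 exon 6, 0.0412 and 0.023 in USP4 exons 11 and 2, 0.00918 in USP8 exon 5 and -0.00577 in the 73-nt USP47 exon. As a difference in inclusion share 6 kept their sign, 12 were at exactly 0, and 3 changed it, to 0.0115 in USP33 exon 23, and 0.0169 and 0.00435 in USP39 exons 3 and 12. Depth limits 125 of the 155 exons, since fewer than 10 specific reads leave Ψ intervals with a median width of 0.68 in the SSE mimetic set.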

Other observations

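USP25 and USP28, the paralog pair, had similar values at exon 13 of each gene, which were noticed after the values were seen. USP28 exon 13, of 60 codons, had Ψ 0.33 (0.13 to 0.62) in the SSE mimetic set and 0.81 (0.57 to 0.99) in the scrambled set, a difference of -0.48 with a Bayes factor of 9.08. It rested on 6 and 30 inclusion reads, 27 and 44 shared reads and no skipping read, where USP25 exon 13 had 6 and 57, 26 and 74, and none. Inclusion reads stood at 0.668 and 3.12 times the intron density in USP28, and at 0.854 and 4.82 times in USP25. The exons are 180 and 162 nt long and had 99 identical bases over 154 aligned positions, 64.3%. Neither exon had the reads for the test.

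USP8 exon 3, at chr15:50441349-50441493, had 39 inclusion reads with the scrambled oligo and none with the SSE mimetic, with Ψ at 0.76 and 0.30. Exon 23 of USP48 had 63 and 3 inclusion reads, with Ψ at 0.94 and 0.59. A 155-nt partly coding exon of USP42 was at Ψ 0.77 (0.51 to 0.95) in the SSE mimetic set on 7 inclusion reads and at 0.42 (0.22 to 0.64) in the scrambled set on 10 inclusion and 7 skipping reads. MINDY3, of another deubiquitinase family, passed the Bayes factor and size limits with 3 specific reads in the SSE mimetic set, at Ψ 0.40 against 0.95 with a Bayes factor of 2131. One USP event, in USP45, was listed for the scrambled oligo alone, with 2 inclusion and 3 skipping reads.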
